A study of Mus musculus with 45 samples.

Results

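Induced pluripotent stem cell (iPSC) clones made from T cells of one mouse were compared between an early and a late passage, passage 4 and passage 16, with 3 clones at each. These 6 arrays are among 45 arrays of the series and among the 33 that were deposited in the same table. That table, which was fitted as a whole, also holds clones of another animal, mouse 1. These are granulocyte clones at passages 4 and 16 and clones labelled SMP at passage 6. They were chosen by the labels for origin, passage and mouse, and all 11807 genes that could be named were tested. Per the labels, the clones came from a secondary reprogramming system, in which somatic cells of a mouse that already carries the reprogramming factors are converted. The same mouse also gave clones from tail tip fibroblasts (TTF), splenic B cells and bone marrow granulocytes (Gra) at both passages, 3 clones each, which served to ask whether a passage change was shared by other origins. Every group was grown in serum and LIF on irradiated embryonic fibroblasts and preplated for 45 minutes to take these feeder cells away. The labels used here give no strain, age, sex or treatment beyond this, and every clone of the comparison traces back to 1 animal, so p-values cover the spread between clones only. Clones are numbered from 1 to 3 at each passage, but the data do not establish that a number names the same line at both, and the numbers were used as names of arrays.

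An iPSC is a somatic cell returned to a state like that of an embryonic stem cell by a few transcription factors. Early after reprogramming such cells can keep traces of their cell of origin or an incomplete network of pluripotency genes, and passaging is known to alter both. LIF acts through STAT3 to hold mouse cells in the naive state, while signalling through FGF and ERK, with immediate early genes such as the Fos, Jun and Egr families as its first targets, moves them toward differentiation.

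Values are log2 intensities after RMA, a method that background-corrects, quantile-normalizes and summarizes the probes of each probe set, so 1 unit is a 2-fold difference. A gene counted as called when its limma p-value, adjusted by Benjamini-Hochberg over all 11807 genes, was under 0.05, and errors of changes are standard errors (SE) of the model. Of all genes, 2113 (17.9%) were called between the passages, 884 higher at passage 16 (7.49%) and 1229 lower (10.4%). A change of at least 2-fold was seen for 692 of them, 212 higher and 480 lower. The split between rises and falls moved with the scaling: 41.8% of the calls were rises as deposited and 58.9% after each array was centred on its median, which moved the median change of all genes from 0.0476 to 0.157. For 2023 of the called genes (95.7%) the 3 values at one passage did not overlap the 3 at the other, as for 4141 of all genes (35.1%).

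The arrays resembled each other closely. Pairwise correlations over all genes were 0.9884 to 0.995 among the passage 4 clones, 0.9789 to 0.9945 among the passage 16 clones, and 0.962 to 0.9787 between the passages. Clone 2 of passage 4 had the highest array median of the 33 arrays, 7.166, and clone 3 of passage 16 correlated least with its group, 0.9796 on average. Outside the T cell clones, granulocyte clone 3 at passage 16 stood apart at 0.9222 and widened the spread that all groups share in the model. Leaving it out raised the calls to 3154.

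The label of the cells held in both groups. Pou5f1, the central transcription factor of pluripotency, measured 11.37, 11.46 and 11.23 at passage 4 and 11.52, 11.43 and 11.32 at passage 16, and the groups overlapped. Cd3e, a chain of the T cell receptor complex, lay near the bottom of the scale in all 6 clones, between 3.71 and 5.05, and Zap70, the kinase below that receptor, between 5.16 and 6.19. Neither differed past the threshold (Cd3e 0.46 with SE 0.25, adjusted p = 0.217; Zap70 -0.30 with SE 0.25, adjusted p = 0.451). Of 23 measured genes of T cell identity, 2 fell (8.7%, against 10.4% of all genes) and none rose. These were Lat, an adaptor of T cell receptor signalling, by 1.07 and Ptcra, the pre-T cell receptor alpha chain, by 0.82. The share of falls was thus no higher than over all genes, and the call of Ptcra was lost in 5 alternative settings. The median change over the 23 genes was 0.107, against 0.0476 for all genes.

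**Figure D1:**
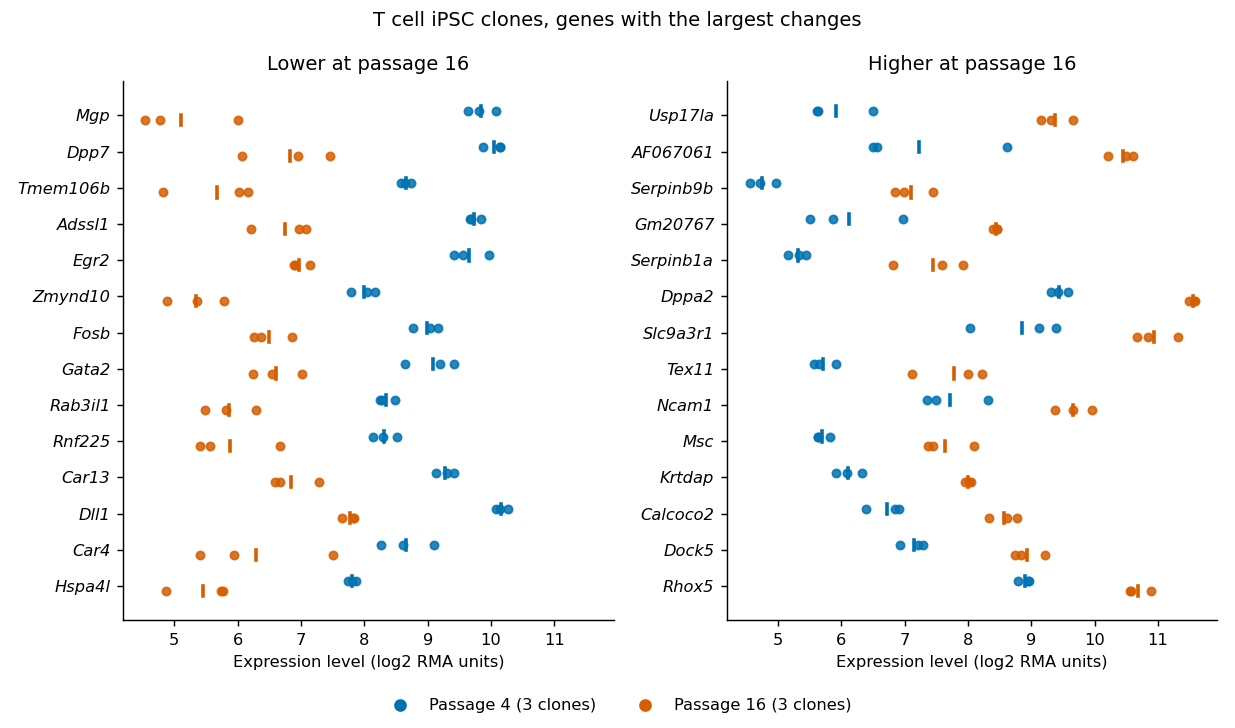
Each point is 1 clone, and the vertical bar is the mean of the 3 clones of a passage, on a log2 scale. Shown are the 14 genes with the largest falls (left) and the 14 with the largest rises (right). They were taken among called genes with a mean of at least 7 in the higher group. In all 28 genes the clones of passage 4 and passage 16 do not overlap, which was a condition for showing them, and clone 2 of passage 4 lies nearest to the late passage for Usp17la, AF067061 and Gm20767.

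The largest fall was that of Mgp, matrix Gla protein, a secreted inhibitor of calcification. It measured 9.80, 10.08 and 9.63 in the passage 4 clones and 4.54, 4.77 and 6.01 in the passage 16 clones. All late clones were far below the early ones, by 26.5-fold on average (log2 -4.73, SE 0.33, adjusted p = 6.81e-10). Dpp7, a dipeptidyl peptidase of the lysosome and of secretory vesicles, went from 9.87, 10.14 and 10.14 to 6.95, 7.46 and 6.07, a 9.36-fold fall (adjusted p = 3.80e-05). Its other probe sets fell less, with log2 changes of -2.02 and -1.38, and the average of all 3 was -2.21. Tmem106b, a membrane protein of late endosomes and lysosomes, went from 8.73, 8.65 and 8.58 to 6.02, 6.16 and 4.82, 7.91-fold down (adjusted p = 2.60e-06). For both, the late clones spread more widely than the early ones, and for Tmem106b clone 3 was the lowest.

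Adssl1, which makes adenylosuccinate on the way to AMP, fell from 9.66, 9.68 and 9.84 to 6.21, 7.08 and 6.96. Zmynd10, needed to assemble the dynein arms of cilia, fell from 7.78, 8.17 and 8.04 to 5.35, 4.88 and 5.79. Gata2, a transcription factor of blood progenitors and trophoblast, fell from 8.65, 9.19 and 9.41 to 6.54, 6.24 and 7.01. These 3 genes thus dropped 7.87-, 6.31- and 5.6-fold, with adjusted p of 1.22e-05, 1.14e-07 and 5.47e-06, and each late clone was more than 1 unit below each early one. Others of the 14 largest falls were the exchange factor Rab3il1 (-2.47), the ring finger gene Rnf225 (-2.43), the carbonic anhydrases Car13 (-2.43) and Car4 (-2.37), and the chaperone Hspa4l (-2.35). Averaged over probe sets, Gata2 changed by -1.79 and Hspa4l by -1.4. Car4 was the least even of them, from 9.10, 8.61 and 8.26 to 7.51, 5.95 and 5.40, and its call was lost without clone 3 of passage 16.

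The largest rise was that of Usp17la, a deubiquitinase of a multigene family. It measured 5.64, 6.49 and 5.62 at passage 4 and 9.15, 9.66 and 9.31 at passage 16, a 11-fold rise (log2 3.46, SE 0.43, adjusted p = 4.98e-06). AF067061 followed, with 6.49, 8.62 and 6.56 at passage 4 and 10.21, 10.50 and 10.61 at passage 16 (9.28-fold, adjusted p = 0.000113), then Serpinb9b, an inhibitor of serine proteases, with 4.56, 4.97 and 4.71 and 7.44, 7.0 and 6.84. Gm20767 rose from 5.50, 6.98 and 5.86 to 8.39, 8.45 and 8.46 (4.99-fold, adjusted p = 0.00196). Clone 2 of passage 4 held the highest early value of these 4 genes, most clearly for AF067061, while the 3 late clones lay close together. Usp17la, the Serpinb genes and AF067061 have close relatives in the genome, and probes may read more than one of them.

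Further rises were those of Serpinb1a, another protease inhibitor (log2 2.13), Slc9a3r1, a scaffold below the plasma membrane (2.09), and Ncam1, the neural cell adhesion molecule (1.94). Msc, a basic helix-loop-helix repressor, rose by 1.94, Krtdap by 1.90, Calcoco2, a receptor that brings cargo to autophagosomes, by 1.85, and Dock5, an activator of Rac, by 1.78. Slc9a3r1 was among the brightest, from 9.12, 8.03 and 9.39 to 10.84, 10.66 and 11.31. Ncam1 had 6 probe sets, of which 5 rose, 3 past the test at the level of probe sets.

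Genes of naive and core pluripotency changed in one direction where they changed. Of 26 measured, 7 rose (26.9%, against 7.49% of all genes) and none fell, with a median change of 0.4. The level of Dppa2, a chromatin factor that opens germ cell and early embryonic genes, was 9.41, 9.58 and 9.31 at passage 4 and 11.57, 11.59 and 11.48 at passage 16. The 3 late clones spanned 0.10 units and lay 4.32-fold above the early ones (SE 0.31 on the log2 scale, adjusted p = 4.29e-05). Jarid2, a subunit that brings Polycomb complex 2 to its targets, went from 10.01, 9.99 and 9.65 to 11.51, 11.60 and 11.11 (2.87-fold, adjusted p = 2.74e-06), and all 3 of its probe sets rose. Fbxo15, an early target of Oct4 and Sox2, went from 10.39, 10.40 and 10.73 to 11.55, 11.60 and 11.27 (1.95-fold, adjusted p = 0.00162). Gbx2, a homeobox gene below LIF and STAT3, went from 5.12, 6.26 and 4.91 to 7.14, 6.99 and 6.45, and clone 2 of passage 4 came close to the late clones (adjusted p = 0.0493).

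The core factors themselves moved little. Sox2, the partner of Oct4, was called with a small rise, from 11.01, 10.63 and 11.06 to 11.33, 11.47 and 11.09 (log2 0.40, SE 0.13, adjusted p = 0.0304). Nanog read 11.91, 11.29 and 11.75 at passage 4 and 12.16, 12.18 and 11.97 at passage 16; the groups did not overlap, but the change of 0.45 (SE 0.26) missed the threshold (adjusted p = 0.238). Klf4, a reprogramming factor and naive gene, differed by 0.33 (SE 0.12, adjusted p = 0.0639), and Lin28a, which blocks let-7 maturation, by -0.40 (SE 0.47, adjusted p = 0.601), with clone 3 of passage 16 lowest at 8.74. The number of rises in the list was 4 without clone 2 of passage 16, 11 after median centring and 12 without the granulocyte array that stood apart. Rises over all genes then numbered 751, 1323 and 1472, against 884 in the main fit.

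Germ cell genes held rises only, too. Of 20 measured, 8 rose (40.0%, against 7.49% of all genes) and none fell, with a median change of 0.422, and Usp17la was among the rises. Tex11, a gene of meiotic recombination on the X chromosome, went from 5.92, 5.65 and 5.57 to 8.0, 8.22 and 7.11 (4.18-fold, adjusted p = 0.00592). Rhox5, the founding gene of a homeobox cluster on the X chromosome, went from 8.95, 8.97 and 8.79 to 10.89, 10.56 and 10.58 (3.42-fold, adjusted p = 0.0102), and its early and late values were each tight. Stra8, which starts meiosis in answer to retinoic acid, went from 6.84, 7.22 and 7.12 to 8.22, 8.53 and 9.07 (2.92-fold, adjusted p = 0.00806). The two-cell-like state is a rare state that resembles the embryo after its first division. Of its 9 measured genes, 2 rose (22.2%, against 7.49% of all genes) and none fell. All 9 changes were above 0, with a median of 0.632. The 2 that rose were Usp17la again and Tcstv1. Tcstv1 went from 3.58, 4.90 and 3.65 to 5.38, 5.81 and 5.49, with clone 2 of passage 4 the highest early clone (adjusted p = 0.0206).

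Of 14 measured genes of DNA methylation, 4 rose (28.6%, against 7.49% of all genes) and none fell. Dnmt1, the maintenance methyltransferase, rose from 10.14, 10.28 and 10.23 to 10.74, 10.77 and 10.77, a small but even shift of 0.54 (SE 0.13, adjusted p = 0.00369). Dnmt3l, the cofactor of de novo methylation, rose by 0.79 (adjusted p = 0.0299). Mbd1, a reader of methylated DNA, was called at 0.84 (adjusted p = 0.00964) through 1 of its 5 probe sets, while the others changed by -0.41 to 0.18 and the average of all 5 by 0.13 (adjusted p = 0.606), so its direction is not settled. Another reader, Mbd2, was called at 0.55 through its brightest probe set, while its other probe set fell by 0.69, which leaves its direction unsettled too. The number of rises in this list fell to 1 without clone 3 of passage 4 and to 2 without clone 1 of passage 4 or without clone 1 or 2 of passage 16, and was 6 after median centring and 6 without the granulocyte array that stood apart. Over all genes, rises numbered 575 to 751 in the fits without those T cell arrays. They numbered 1323 after median centring and 1472 without the granulocyte array, against 884 in the main fit. Imprinted genes went the other way: of 20 measured, 5 fell (25%, against 10.4% of all genes) and none rose, with a median of -0.45. Meg3, the maternally expressed RNA of the Dlk1 and Dio3 domain, read 8.63, 7.95 and 7.48 at passage 4 and 6.15, 5.91 and 7.36 at passage 16, so that clone 3 of passage 16 was only 0.12 below the lowest early clone. Its call (log2 -1.55, SE 0.49, adjusted p = 0.0284) was lost in 7 of 16 alternative settings, among them without clone 1 of passage 4. Rian, from the same domain, read 7.78, 6.08 and 5.31 at passage 4 and 5.37, 5.43 and 5.14 at passage 16, with clone 1 of passage 4 alone high, and was not called (adjusted p = 0.275). Sgce (-1.32), Plagl1 (-1.16) and Slc22a18 (-1.0) were the other imprinted genes with the largest falls, though the other probe set of Plagl1 was flat at 0.01 and that of Slc22a18 at -0.05. The call of Slc22a18 was lost in 6 of 16 settings, and its averaged probe sets changed by -0.52 (adjusted p = 0.0844). The averaged probe sets of Meg3 changed by -0.81 (adjusted p = 0.0669). The fall count of the list was 3 without clone 2 of passage 16 or after quantile normalization.

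Immediate early genes, which are transcribed within minutes of a growth or stress signal without new protein, held falls and no rises. Of 21 measured, 8 fell (38.1%, against 10.4% of all genes) and none rose, with a median change of -0.437. Promoter sequences of some of the called genes, all with a match, are shown first. Binding sites for the factors that carry such signals, SRF at the CArG box and CREB or ATF proteins at TGACG, are classic features of this class. The runs are the 200 bases before a RefSeq transcription start (GRCm38.p6), written 5′ to 3′ on the gene's strand, from 1 of the starts where RefSeq has several, with matches in capitals on either strand.
Egr2, chr10:67537669-67537868, + strand: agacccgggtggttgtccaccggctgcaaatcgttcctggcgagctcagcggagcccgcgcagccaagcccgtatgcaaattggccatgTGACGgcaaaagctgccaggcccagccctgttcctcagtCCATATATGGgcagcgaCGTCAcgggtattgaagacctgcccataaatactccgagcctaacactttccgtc
Fosb, chr7:19310046-19310245, - strand: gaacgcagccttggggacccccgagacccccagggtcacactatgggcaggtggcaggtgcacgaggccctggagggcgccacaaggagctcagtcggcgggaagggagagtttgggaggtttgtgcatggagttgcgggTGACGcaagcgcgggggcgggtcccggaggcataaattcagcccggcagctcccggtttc
Atf3, chr1:191183334-191183533, - strand: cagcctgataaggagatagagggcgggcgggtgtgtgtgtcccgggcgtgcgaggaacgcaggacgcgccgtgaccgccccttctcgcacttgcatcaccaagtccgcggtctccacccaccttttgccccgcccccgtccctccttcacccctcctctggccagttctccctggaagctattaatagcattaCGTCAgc
Btg2, chr1:134079156-134079355, - strand: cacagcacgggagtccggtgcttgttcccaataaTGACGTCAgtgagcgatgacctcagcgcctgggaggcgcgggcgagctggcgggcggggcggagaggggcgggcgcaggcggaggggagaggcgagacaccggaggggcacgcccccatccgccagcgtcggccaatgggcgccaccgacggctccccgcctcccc

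In the Egr2 run the capitals mark a CArG box (CC, 6 bases of A or T, GG) between a forward and a reverse TGACG, in Fosb and Atf3 a single TGACG, forward and reverse, and in Btg2 a TGACG on each strand that overlap. Over the window from 250 bases before to 50 after a start, 6 of the 8 fallen genes had TGACG and 1, Egr2, had a CArG box. Of the other 13 measured genes of the list, 8 were matched to a promoter, and 4 of those 8 had TGACG and 1 a CArG box. Among all 26994 genes of the RefSeq table, 23% had TGACG and 1.81% a CArG box. Jun and Ier3 had neither in this window. Egr2 has other RefSeq starts, which include a start without a match and a start with a CArG box but no TGACG. A match is a match of letters and says nothing of binding.

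Egr2, a zinc finger transcription factor, measured 9.56, 9.42 and 9.97 at passage 4 and 6.88, 7.14 and 6.90 at passage 16. The 3 late clones spanned 0.25 units and lay 6.4-fold below the early ones (SE 0.27 on the log2 scale, adjusted p = 1.99e-07). Fosb, a subunit of AP-1, measured 8.76, 9.16 and 9.03 and 6.36, 6.85 and 6.26 (5.62-fold lower, adjusted p = 2.26e-06). Jun, its usual partner, measured 9.86, 9.93 and 9.89 and 7.99, 7.84 and 8.14, and the early clones spanned 0.07 units (3.74-fold lower, adjusted p = 7.05e-05). Atf3, a stress-induced factor of the ATF family, measured 9.61, 9.79 and 9.35 and 7.86, 7.71 and 7.66 (3.58-fold lower, adjusted p = 4.77e-05). The number of falls in the list was 7 to 9 when any 1 T cell array was left out. The mean level of the 21 genes was 8.786 to 8.805 in the early clones and 8.048 to 8.072 in the late ones, a gap far wider than the spread inside either group.

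Targets of p53, the transcription factor that answers DNA damage, held falls only. Of 20 measured, 12 fell (60.0%, against 10.4% of all genes) and none rose, with a median change of -0.848. Cdkn1a, the p21 inhibitor of cyclin-dependent kinases, measured 11.07, 10.56 and 10.76 at passage 4 and 9.27, 9.56 and 9.24 at passage 16, 2.71-fold lower (SE 0.21 on the log2 scale, adjusted p = 4.25e-05). Btg2, an antiproliferative gene that also counts as immediate early, measured 9.48, 9.92 and 9.38 and 7.70, 8.06 and 7.76 (3.38-fold lower, adjusted p = 3.79e-05). Ddit4l, an inhibitor of mTOR complex 1, measured 9.40, 9.41 and 9.37 and 7.33, 8.38 and 7.78, where the early clones spanned 0.04 units (adjusted p = 0.00192). Pmaip1, the apoptosis gene Noxa, measured 10.57, 9.62 and 10.16 and 8.84, 9.26 and 7.65 and was uneven at both passages (adjusted p = 0.00377). Leaving out any 1 T cell array left 10 to 12 falls. Of the 10 measured cell cycle inhibitors 2 fell (20%, against 10.4% of all genes), Cdkn1a and Rbl2. Rbl2, a relative of the retinoblastoma protein, went from 7.46, 7.05 and 7.49 to 5.49, 6.16 and 5.78 (adjusted p = 0.000274). Among 30 measured genes of the cell cycle and replication 2 rose (6.67%, against 7.49% of all genes) and none fell. The 2 were the formin Diaph3 (1.81) and cyclin E1, Ccne1 (0.91).

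**Figure D2:**
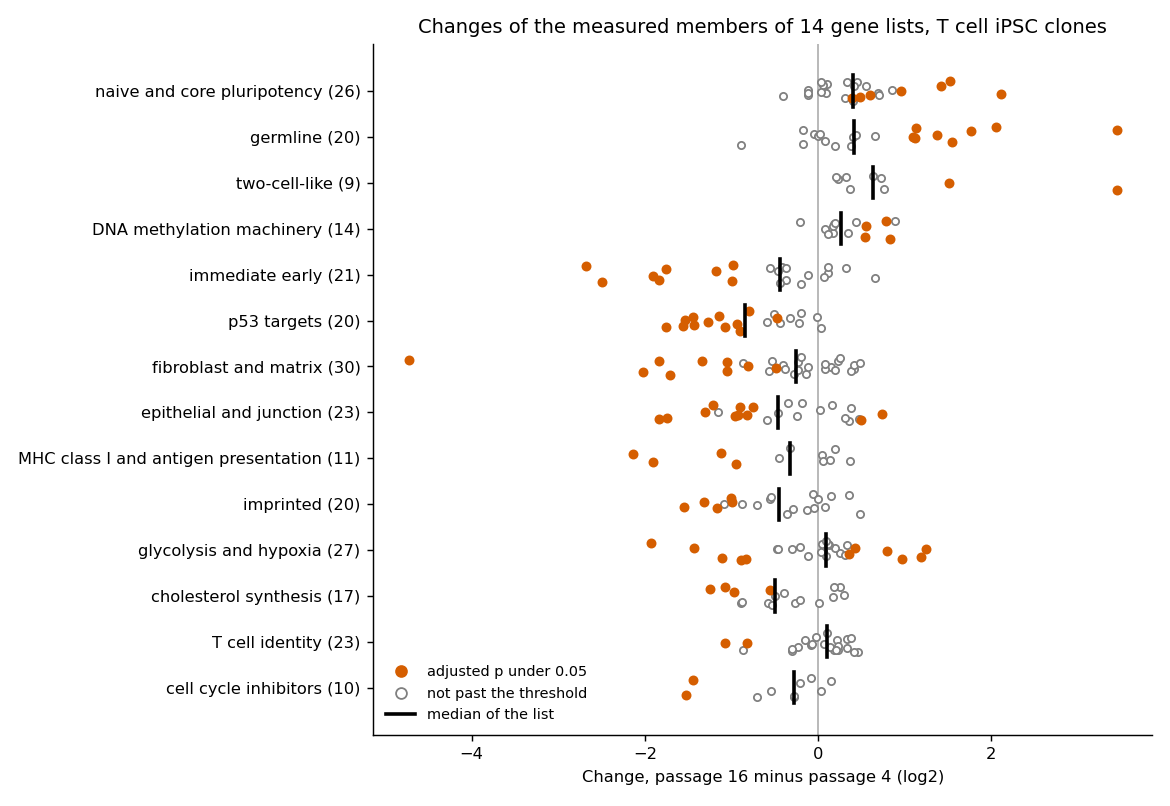
Each point is 1 measured gene of a list, placed by its log2 change from passage 4 to passage 16. Filled points passed the threshold, open points did not, the black bar is the list median, and the number in brackets counts the measured genes. Filled points lie only to the right for pluripotency, germline, two-cell-like and DNA methylation genes, and only to the left for immediate early, p53, fibroblast, MHC, imprinted, cholesterol, T cell and cell cycle inhibitor genes.

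Fibroblast and matrix genes were followed because fibroblasts served as feeders. Of 30 measured, 9 fell (30%, against 10.4% of all genes) and none rose. The mean level of the 30 genes was 8.179, 8.252 and 8.109 in the early clones and 7.697, 7.439 and 7.781 in the late ones, so the groups did not overlap. Besides Mgp these included Lox, which cross-links collagen, with 8.33, 8.54 and 8.07 at passage 4 and 6.31, 6.31 and 6.25 at passage 16 (4.07-fold lower, adjusted p = 0.00196), and Twist1, a mesenchymal transcription factor, with 8.29, 8.58 and 8.25 and 6.68, 6.53 and 6.40 (3.57-fold lower, adjusted p = 6.54e-07). The collagen genes Col3a1 (-1.71, adjusted p = 0.000252), Col6a1 (-1.06, adjusted p = 0.0119) and Col1a1 (-1.05, adjusted p = 0.00815) fell too. The other probe sets of Lox changed by -2.05 and -0.16, and that of Col3a1 by -0.60. The 21 other members did not pass, and the highest change of the list was 0.49. In a bulk culture, fewer cells of a type and less RNA per cell cannot be told apart. The part of fibroblast RNA in the falls of immediate early genes, p53 targets and other groups was not tested. The count of falls was 5 without clone 2 of passage 16 and 6 without clone 2 of passage 4.

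Epithelial and junction genes held more falls than rises. Of 23 measured, 9 fell (39.1%, against 10.4% of all genes) and 2 rose (8.7%, against 7.49%), with a median of -0.464. Cldn7, a claudin of tight junctions, went from 10.36, 9.64 and 9.72 to 7.89, 8.43 and 7.87 (3.58-fold lower, adjusted p = 0.00209). Krt18, a keratin of simple epithelia, went from 12.03, 11.80 and 11.38 to 10.97, 10.14 and 10.16 (adjusted p = 0.00536), and Krt7 fell by 1.74 with clone 3 of passage 16 the highest late clone (adjusted p = 0.00504). Grhl2, a transcription factor of epithelia, fell by 1.21 in the brighter of its probe sets only (adjusted p = 0.0313). The count of falls was 5 after median centring and 4 to 6 when 1 T cell array was left out. Falls over all genes then numbered 923 and 904 to 1070, against 1229 in the main fit.

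Genes of MHC class I and antigen presentation held falls only. Of 11 measured genes 4 fell (36.4%, against 10.4% of all genes) and none rose, with a median change of -0.321. H2-K1, a classical class I heavy chain, measured 8.48, 8.75 and 8.26 at passage 4 and 6.69, 6.60 and 5.77 at passage 16, 4.41-fold lower (SE 0.40 on the log2 scale, adjusted p = 0.000413). Of its 4 probe sets 3 fell and 1 was flat at 0.13, and class I genes are so alike that probes may read several of them. Psmb9, a subunit of the immunoproteasome, measured 8.06, 7.94 and 8.25 and 6.77, 6.96 and 7.17 (adjusted p = 0.000202), but its dimmer probe sets changed by 0.35 and 0.34. Tapbp, tapasin, which loads peptides, measured 9.83, 9.73 and 9.39 and 9.0, 8.78 and 8.33 (adjusted p = 0.00306), with its other probe set at 0.25. H2-Q1, a nonclassical class I gene, was dim, from 5.33, 4.63 and 5.51 to 2.97, 3.63 and 3.17 (adjusted p = 9.64e-05). H2-D1, the other classical chain, differed by -0.45 (SE 0.21) and was not called (adjusted p = 0.14); its 5 probe sets changed by -0.45 to 0.58, and their average by 0.084. The averaged probe sets of H2-K1 changed by -1.03. With all probe sets of a gene averaged, the list held 2 calls. Of 21 measured interferon response genes, 1 fell, the exonuclease Isg20 (-1.80), and 1 rose, Ifitm2 (0.60). Each was 4.76% of the list, under the 10.4% falls and 7.49% rises of all genes.

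Signalling lists held large single changes. Dll1, a ligand of Notch, measured 10.07, 10.13 and 10.27 at passage 4 and 7.83, 7.83 and 7.65 at passage 16, 5.24-fold lower, and both groups were tight (SE 0.44 on the log2 scale, adjusted p = 0.000338). Among the 21 measured Notch genes 4 fell (19%, against 10.4% of all genes) and 2 rose (9.52%, against 7.49%). Dtx1, a ubiquitin ligase of the pathway, fell by 0.85 and Hes6 by 0.82, and the receptor Notch4 rose from 6.32, 7.06 and 6.40 to 7.73, 8.09 and 7.72 (adjusted p = 0.0029). The falls numbered 1 without clone 2 of passage 4, and 2 without clone 3 of passage 4 or clone 1 of passage 16. Among 14 measured genes of feedback on FGF and ERK signalling, 4 rose (28.6%, against 7.49% of all genes) and 1 fell (7.14%, against 10.4%). Spred1 (1.13), Spry2 (0.84) and Spry4 (0.84), inhibitors of the pathway, rose, and Spry1 fell from 8.16, 8.07 and 7.86 to 6.83, 6.82 and 6.68 (adjusted p = 0.0023). Rises numbered 2 without clone 3 of passage 4 or clone 1 of passage 16, and the call of Spry4 was lost in 7 alternative settings. Of 18 measured genes around LIF and STAT3, 4 rose (22.2%, against 7.49% of all genes) and 1 fell (5.56%, against 10.4%). Bcl3, a cofactor of NF-kB and target of STAT3, rose from 7.14, 7.85 and 7.35 to 8.58, 8.68 and 8.99 (adjusted p = 0.00041). Socs2 rose by 0.70, and the kinase gene Pim3 fell by 0.67. The averaged probe sets of Socs2 changed by 0.57 and were not called (limma adjusted p = 0.111). The rises numbered 1 without clone 1 and 2 without clone 2 of passage 16.

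Genes of energy and nutrient metabolism split. In glycolysis and the response to low oxygen, 6 of 27 measured genes rose (22.2%, against 7.49% of all genes) and 5 fell (18.5%, against 10.4%). Egln3, an oxygen-sensing prolyl hydroxylase, rose from 8.47, 8.99 and 8.51 to 9.88, 9.91 and 9.93 (2.39-fold, adjusted p = 0.000939), and Gys1, glycogen synthase, from 7.21, 7.22 and 7.25 to 8.31, 8.36 and 8.60 (2.29-fold, adjusted p = 5.52e-05). The other probe set of Gys1 changed by only 0.31, and the average of its probe sets by 0.76. Eno2, the neuronal enolase, fell from 9.46, 9.39 and 9.52 to 6.88, 7.36 and 8.34 (3.81-fold, adjusted p = 0.000194), with clone 3 the highest late clone, and Adm, adrenomedullin, fell by 1.43. The rises numbered 3 without clone 3 of passage 4 or clone 1 of passage 16. The core of the hypoxia response element, ACGTG, was present in the promoters of 4 of the 6 genes that rose, in 14 of 19 other members matched to a promoter, and in 21.8% of all genes. It is shown for Ldha, lactate dehydrogenase A, in the 200 bases before a RefSeq start. Ldha rose by 0.43, is a textbook target of the hypoxia factors, and was chosen after its values were seen. Ldha has another start without a match.
Ldha, chr7:46845604-46845803, + strand: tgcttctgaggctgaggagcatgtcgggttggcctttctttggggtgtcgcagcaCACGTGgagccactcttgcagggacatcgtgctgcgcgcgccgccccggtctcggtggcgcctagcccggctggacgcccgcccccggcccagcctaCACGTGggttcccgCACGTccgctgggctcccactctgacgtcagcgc

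Of 17 measured genes of cholesterol synthesis and uptake, 4 fell (23.5%, against 10.4% of all genes) and none rose. Fdft1, squalene synthase, went from 10.68, 10.89 and 10.74 to 9.66, 9.72 and 10.03 (adjusted p = 6.20e-05) and Stard4, a sterol carrier, from 8.18, 8.12 and 8.02 to 6.99, 6.89 and 6.68 (adjusted p = 0.0145). Sc5d fell by 1.08 and Dhcr7 by 0.56, and both were near the threshold (adjusted p = 0.0358 and 0.0405). Their calls were lost in 9 and 11 alternative settings, and the other probe set of Sc5d changed by -0.10. The falls numbered 2 when any 1 T cell array was left out and after quantile normalization or median centring. Over all genes, falls then numbered 904 to 1070, 1110 and 923, against 1229 in the main fit. In the integrated stress response 5 of 21 fell (23.8%, against 10.4% of all genes) and 4 rose (19%, against 7.49%). Ddit3, the stress factor CHOP, measured 9.80, 10.09 and 10.01 at passage 4 and 7.66, 7.94 and 8.09 at passage 16 (4.2-fold lower, adjusted p = 3.45e-06), and Nupr1 fell by 1.21. Atf4, the central factor of the response, fell by 0.83 in the brighter of its probe sets, while the other changed by 0.38. Averaged, its probe sets changed by -0.22 (limma adjusted p = 0.162), which leaves its direction unsettled. The calls of Atf4 and Nupr1 were lost in 6 and 5 alternative settings. Without clone 1 of either passage 3 genes fell, and the rises numbered 2 without clone 1 or 3 of either passage. Of 25 measured genes of the spliceosome and RNA processing 6 rose (24%, against 7.49% of all genes) and 2 fell (8%, against 10.4%). They were led by Hnrnpm (0.88) and Srsf2 (-0.75, where probe sets disagreed). The rises numbered 2 without clone 2 of passage 4, 3 without clone 1 or 2 of passage 16, and 1 in a fit of the 6 arrays alone.

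The lists of other lineages and of housekeeping functions gave the following counts, beside 10.4% falls and 7.49% rises over all genes. The share of falls was 6.9% for endoderm, 8.33% for primitive streak and mesoderm and 6.67% for B cell genes. It was 4.44% for ribosomal proteins, 9.3% for the respiratory chain, 6.67% for Hox and 9.09% for Polycomb genes. All of these lay under the share of all genes. Shares of rises were 18.8% for early neural, 18.2% for primed epiblast and 15.8% for granulocyte genes, from 2 or 3 genes each. Of 29 measured endoderm genes 2 fell (Lamb1 -1.03, Apoe -0.90). Of 24 genes of primitive streak and mesoderm 2 fell (Snai1 -0.97, Axin2 -0.73, with its other probe set at 0.04). Of 15 B cell genes 1 fell (Cd79a -0.69). The calls of Apoe and Cd79a were lost in 8 and 9 alternative settings. Among 16 early neural genes 3 rose and 1 fell, led by Tubb3, a neuronal tubulin (1.51). Among 17 trophoblast genes 6 were called (35.3%, against 17.9% of all genes): 4 fell, led by Gata2 (-2.48) and Krt7 (-1.74), and 2 rose, of which none was called without clone 1 or without clone 2 of passage 4. Of 11 primed epiblast genes 2 rose, Foxd3 (1.10) and Cdh2 (0.94), and of 19 Nodal and BMP genes 1 rose, Id3 (1.01), and 2 fell, Bmp7 (-1.03) and the receptor gene Acvr2b (-0.71). Granulocyte genes gave 3 rises and 1 fall of 19, and the 3 that rose (Mmp9, Mmp8 and Csf3r) all lay under 6 units. Of 45 cytosolic ribosomal proteins 2 fell, of 43 respiratory chain genes 4 fell, and none of either rose; the respiratory falls were led by Cox8a (-1.03). Of 30 Hox genes 2 fell and 1 rose, and of 22 Polycomb genes 2 fell, Pcgf1 (-1.30) and Rybp (-0.85), and Jarid2 rose. Most counts of 4 or fewer in these lists dropped when 1 T cell array was left out: the neural rises numbered 1 without clone 1 of passage 4 or clone 2 of passage 16, the granulocyte rises 1 without clone 3 of passage 4 or clone 2 of passage 16, and the respiratory falls 1 without clone 1 or 3 of passage 16. Of 16 measured genes related to X chromosome dosage 2 rose, Rhox5 and Kdm5c, and Rlim was called at -0.63 through the brighter of its probe sets, while the other changed by 0.32; the call was lost in 6 of 16 settings, and the average of the probe sets changed by -0.16 (adjusted p = 0.622). Xist, the noncoding RNA of X inactivation, was 6.67, 7.23 and 6.32 at passage 4 and 5.95, 6.31 and 6.15 at passage 16 and was not called (adjusted p = 0.15).

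To see which changes other origins shared, the passage change of the T cell clones was tested against the mean passage change of the TTF, B cell and granulocyte clones of the same mouse, which use no array of the T cell clones. The contrast called 1963 genes (16.6%), 652 with a more positive and 1311 with a more negative change in T cell clones, and 1242 genes were called in both tests. Median centring turned this split, with 1095 more positive and 987 more negative.

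Fosb moved in opposite directions. In T cell clones it fell by 2.49, while it changed by 1.09 in TTF, 0.92 in B cell and 1.79 in granulocyte clones, a difference of -3.76 (SE 0.33, adjusted p = 3.97e-08). At passage 4 the T cell clones averaged 8.98, above TTF clones at 7.01 ± 0.59 (SD, n = 3), B cell clones at 6.57 ± 0.03 and granulocyte clones at 5.52 ± 0.04. At passage 16 they averaged 6.49, below the 3 other origins at 8.11 ± 0.29, 7.50 ± 0.54 and 7.31 ± 0.07. Dll1 crossed in the same way: it fell by 2.39 in T cell clones and changed by 1.68, 1.74 and 1.61 in the others (difference -4.07, SE 0.50, adjusted p = 2.86e-06). Rab3il1 (difference -3.86), Car4 (-3.48), Tmem106b (-3.11) and H2-K1 (-3.11) completed the 6 most negative differences. H2-K1 changed by 1.67 in TTF, 0.16 in B cell and 1.06 in granulocyte clones.

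**Figure D3:**
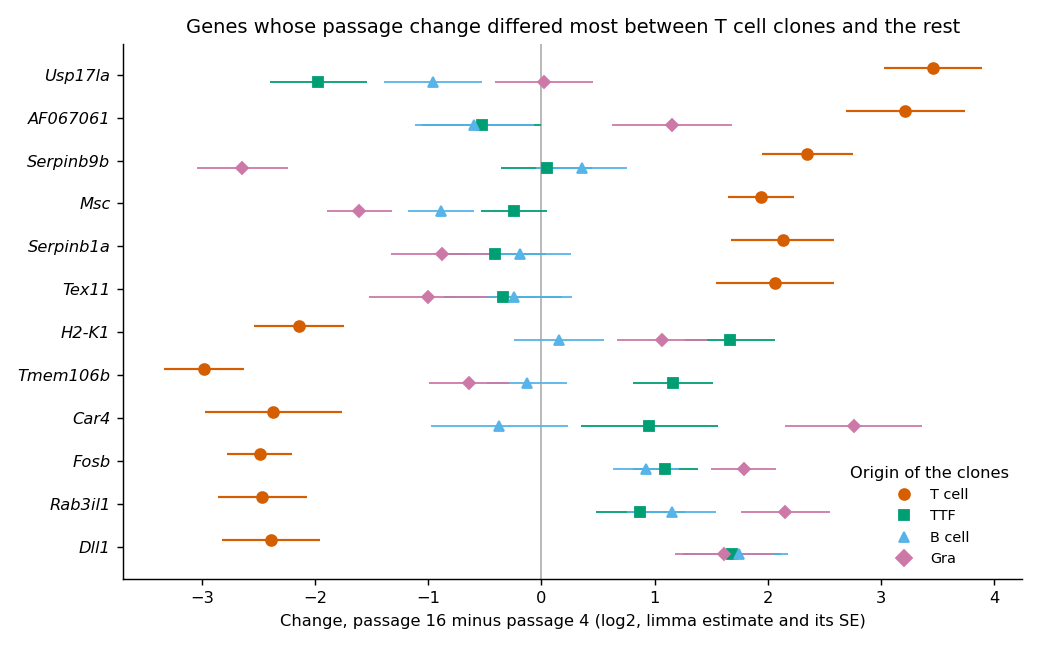
Points are limma estimates of the log2 change from passage 4 to passage 16 for each origin, 3 clones per passage, and bars are their SE. Shown are the 12 genes whose change in T cell clones differed most from the mean of the other origins. They were taken among genes called in both tests, without overlap between the passages and with a mean of at least 7 in the higher group. The T cell estimate lies on the other side of 0 from at least 1 other origin in every gene shown, and from all 3 for Dll1, Rab3il1, Fosb, H2-K1, Tex11, Serpinb1a and Msc.

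On the positive side, Usp17la rose by 3.46 in T cell clones and changed by -1.97 in TTF, -0.96 in B cell and 0.02 in granulocyte clones (difference 4.43, SE 0.50, adjusted p = 1.03e-06). AF067061 (3.20), Serpinb9b (3.10), Msc (2.85), Serpinb1a (2.63) and Tex11 (2.59) followed under the same conditions. Dppa2 differed by 2.39 (SE 0.36, adjusted p = 3.86e-05): the T cell clones started low, at 9.43 on average, and ended at 11.54, while the other origins averaged 10.96 to 11.60 at passage 4 and 10.84 to 11.04 at passage 16. Jarid2 differed by 1.58 (adjusted p = 6.69e-06) and Nanog by 1.08 (adjusted p = 0.0112).

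Other changes were shared in direction. Mgp fell in every origin, with changes of -1.85 in TTF, -1.86 in B cell and -2.27 in granulocyte clones, and the change in T cell clones differed by -2.74 (SE 0.39, adjusted p = 1.56e-05); its level at passage 4 was 9.84 in T cell clones and 8.02, 8.13 and 7.85 in the others. Rhox5 rose by 2.80 in TTF, 1.47 in B cell and 0.37 in granulocyte clones, and its difference of 0.23 (SE 0.56) missed the threshold (adjusted p = 0.852). For Plagl1 the changes were -1.16 in T cell clones and -1.12, -1.35 and -2.33 in the others, with a difference of 0.44 (adjusted p = 0.403), and for Gys1 1.2 against 1.22, 1.05 and 1.69 (difference -0.13, adjusted p = 0.775).

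By list, the difference was more negative in T cell clones for 9 of 21 immediate early genes, 16 of 30 fibroblast genes, 6 of 20 p53 targets and 6 of 11 MHC genes, and more positive for none of them. Over all genes these shares were 11.1% and 5.52%. It was more positive for 11 of 26 pluripotency genes and 7 of 20 germ cell genes, and more negative for none. Granulocyte clone 3 of passage 16, which stood apart, had a mean level of the pluripotency genes of 9.736, against 10.3 and 10.32 in the other granulocyte clones of that passage. Without it the counts were 11 pluripotency and 9 germ cell genes, while more positive differences over all genes went from 652 to 1036. The MHC count was 3 when all probe sets of a gene were averaged. Median changes of the p53 targets were -0.848 in T cell, -0.752 in TTF, 0.0015 in B cell and -0.0186 in granulocyte clones. Those of the fibroblast genes were -0.252 in T cell clones and 0.781, 0.691 and 0.465 in the others, so the median was above 0 in the other cultures and below 0 in the T cell cultures. Its part in the differences was not tested.

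**Figure D4:**
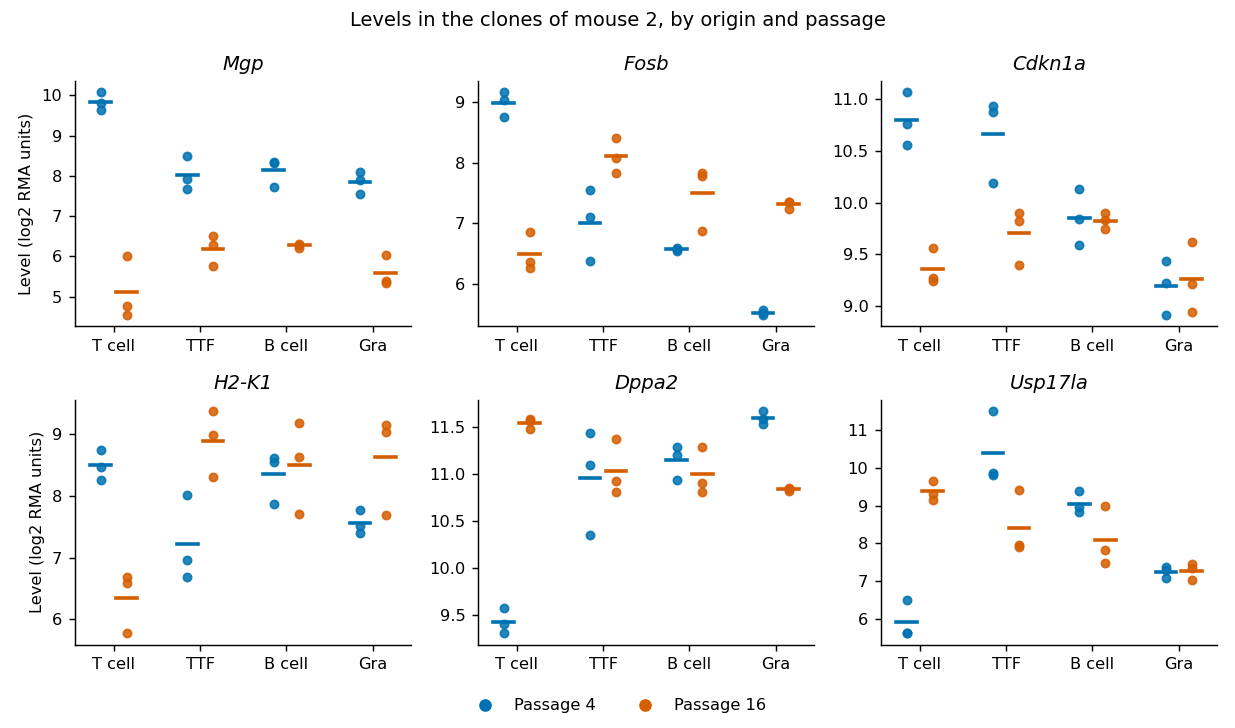
Points are single clones of mouse 2 and bars the means of 3, on a log2 scale with its own range in each panel, by origin and passage. Mgp is lower at passage 16 in every origin, Fosb and H2-K1 move down in T cell clones and up on average elsewhere, Cdkn1a moves down in T cell and TTF clones, and Dppa2 and Usp17la start low in T cell clones. SMP clones of mouse 1, not shown, were low for Usp17la too (5.45 to 6.33).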

How the data were processed

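Expression in 45 iPSC cultures was measured on Affymetrix arrays, and the 6 T cell arrays of mouse 2 at passages 4 and 16 belong to a table of 33 arrays. The authors deposited log2 values per probe set, made with RMA per the submitters' processing notes; its version and annotation are not given in the sources used here. Passage 10 came in another table from another platform, normalized separately, and entered no fit. Of 22690 probe sets, 18003 carried 1 gene symbol, 287 several and 4400 none; each of 11807 genes was read from its brightest probe set on average, and no filter on dim genes was applied. Gene names came from the platform's annotation, and promoter sequences from RefSeq (GRCm38.p6).

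limma 3.58.1 in R 4.3.3 (lmFit, eBayes) fitted 1 mean per group over all 33 arrays, those of mouse 1 included, with 22 residual degrees of freedom. The p-values are two-sided. The steps were tested on simulated data. Tables and figures used Python 3.11.15 with pandas 2.3.3 and matplotlib 3.10.9. Named were, by rule, the 14 largest changes in each direction among called genes without overlap and with a mean of at least 7 in the higher group, the 6 largest differences in each direction from the other origins under the same conditions, up to 4 called members per list, and 24 measured genes listed by name. The members and the 34 gene lists were chosen with earlier results of these data known. Alternatives were other normalizations, probe set means, a filter, other sets of arrays, each clone left out, and the clone number as a block. Deviations of same-numbered clones between the passages correlated at 0.41, -0.155 and 0.16, so the numbers were not used as pairs. The labels give no batch or date, so passage and a batch that coincides with it cannot be told apart. With 3 arrays a group, precision is limited by their number.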

Additional observations from a re-analysis of the deposited data

Results flagged for a closer look

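The passage change of T cell clones differed from the mean passage change of the TTF, B cell and granulocyte clones of the same mouse for 24 of the genes named for this contrast or listed by name, by limma with Benjamini-Hochberg adjustment over all genes. The 6 in each direction with the largest differences were picked for being called in this contrast, so for them the outcome was set by the choice. The others come from the 24 measured genes listed by name, of which only those called are given. Values are log2 differences, T cell clones minus the mean of the others, 3 clones per group.

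Genes of signalling and immediate early response were more negative in T cell clones: Dll1 (-4.07, adjusted p = 2.86e-06), Fosb (-3.76, adjusted p = 3.97e-08), Egr2 (-3.05, adjusted p = 4.60e-07) and Jun (-2.51, adjusted p = 1.04e-05). For each of the 4, all 3 passage 16 values lay below all 3 passage 4 values. This lack of overlap was a condition of the rules by size that also picked Dll1, Fosb and Egr2, so it adds no support.

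Matrix genes were more negative too: Col6a1 (-2.75, adjusted p = 2.84e-06), Mgp (-2.74, adjusted p = 1.56e-05), Col3a1 (-2.71, adjusted p = 4.80e-06) and Col1a1 (-2.19, adjusted p = 2.17e-05). Of these, Mgp fell in all 4 origins, while the collagen genes changed by more than 0 in the others.

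Class I heavy chains followed, first H2-K1 (-3.11, adjusted p = 2.86e-05) and then H2-D1 (-1.40, adjusted p = 0.00014). The change of H2-D1 within T cell clones was not called, and its 5 probe sets disagreed: averaged, its difference was -0.42 (adjusted p = 0.302). That of H2-K1 was then -1.54 (adjusted p = 9.52e-05). Other negative differences were those of Rab3il1 (-3.86, adjusted p = 1.86e-06), Car4 (-3.48, adjusted p = 0.000841), Tmem106b (-3.11, adjusted p = 6.18e-06) and Meg3 (-2.03, adjusted p = 0.0129).

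Pluripotency genes were more positive in T cell clones: Dppa2 (2.39, adjusted p = 3.86e-05), Jarid2 (1.58, adjusted p = 6.69e-06), Nanog (1.08, adjusted p = 0.0112) and Klf4 (0.50, adjusted p = 0.0154), of which the changes of Nanog and Klf4 within T cell clones were not called. Positive differences were also found for Usp17la (4.43, adjusted p = 1.03e-06), AF067061 (3.20, adjusted p = 0.000488), Serpinb9b (3.10, adjusted p = 3.18e-05), Msc (2.85, adjusted p = 1.86e-06), Serpinb1a (2.63, adjusted p = 0.000774) and Tex11 (2.59, adjusted p = 0.00297).

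All 24 genes were taken because they were called in the main fit, so the counts that follow describe the processing and add no support. In the 15 alternatives that keep the other origins, recomputed for this contrast after the data had been seen, all 24 differences kept their direction and 20 stayed called in each. The exceptions besides H2-D1 were Meg3, which was not called without clone 1 of passage 4 (-1.73, adjusted p = 0.0592), without clone 2 of passage 16 (-1.75, adjusted p = 0.0587) or with averaged probe sets (-0.91, adjusted p = 0.0792), Nanog without clone 2 of passage 4 (0.90, adjusted p = 0.0592), and Klf4 with the 24 arrays of mouse 2 (adjusted p = 0.0508) or with the replicate block (adjusted p = 0.0766).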

How the results depend on the processing

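The number of genes called between passages stayed within 1.5 times of 2113 under all 16 alternatives: 1548 with the 24 arrays of mouse 2 at passages 4 and 16, 1647 with the 6 T cell arrays alone, and 3154 without granulocyte clone 3 of passage 16, where all 2113 remained called. Leaving out 1 T cell array gave 1583 to 1821 calls, 643 to 739 of at least 2-fold, and 1501 to 1980 for the difference from the other origins. Rises between the passages then numbered 575 to 751 and falls 904 to 1070, beside which list counts in those fits are to be read. With the clone number as a replicate block 1664 genes were called, 1614 of them shared with the fit without it. The samples share only a number. The 6 T cell arrays alone give no value for the difference from the other origins. Rises and falls were 1116 and 1110 after quantile normalization, 1147 and 1251 after cyclic loess and 1323 and 923 after median centring; among changes of at least 2-fold, median centring gave 45.8% rises against 30.6%. No gene shared with the main calls changed direction, except 3 when all probe sets of a gene were averaged. Mbd2 turned to -0.067 in that setting, which averages a rising and a falling probe set. Of 131 named genes that were called, 79 stayed called in all 16 alternatives, and 86 in all 6 that left out a T cell array. Of the 62 named genes with several probe sets, these moved in 1 direction for 45.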

Other observations

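A list of lysosome and autophagy genes was written after Dpp7, Tmem106b and other falls had been seen, so its counts are a description and carry no test. Of 73 measured genes, 34 were called lower at passage 16 (46.6%, against 10.4% of all genes) and 2 higher (2.74%, against 7.49%), with a median change of -0.607. The mean level of the 73 genes was 8.9, 8.891 and 8.906 in the early clones and 8.161, 8.313 and 8.242 in the late ones, and the groups did not overlap. Ifi30, the lysosomal thiol reductase, went from 12.80, 12.68 and 12.76 to 10.18, 10.49 and 10.74 (4.85-fold lower, limma adjusted p = 6.55e-06), and Cln3, the membrane protein lost in juvenile Batten disease, from 7.79, 7.97 and 7.97 to 5.71, 5.82 and 5.66 (4.52-fold, adjusted p = 1.14e-07). Other falls, named after their values were seen, were the proteases Ctsd (-1.45), Ctsl (-0.93) and Ctsb (-0.87), the glycosidases Hexa (-1.38) and Gaa (-1.21), the channel Mcoln1 (-0.70), and the autophagosome proteins Gabarap (-1.51) and Gabarapl1 (-1.75). Median changes of the list in TTF, B cell and granulocyte clones were 0.0841, 0.0387 and 0.222. Of the 73 genes, 31 had a more negative change in T cell clones than the mean of the others, against 11.1% of all genes. A more positive change was called for 3, against 5.52% of all genes. The falls numbered 24 without clone 1 of passage 16 and 28 to 32 without any other T cell array, and 29 after median centring. Falls over all genes numbered 904, 908 to 1070 and 923 in these fits, against 1229 in the main fit. The fibroblast genes fell in the same clones, and their part was not tested.

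Lysosomal genes share CACGTG, the letters read by TFEB and related factors, in many promoters. The letters were searched on both strands from 250 bases before to 50 after each RefSeq start. They were found for 11 of the 29 fallen genes matched to a promoter, for 11 of the 33 other members matched, and for 8.09% of all genes. The search was chosen after the values were seen. The 200 bases before the start are shown for Cln3, Mcoln1 and Ctsd, with the matches in capitals, from GRCm38.p6 and 5′ to 3′ on the gene's strand; Cln3 has another start without a match.
Cln3, chr7:126583237-126583436, - strand: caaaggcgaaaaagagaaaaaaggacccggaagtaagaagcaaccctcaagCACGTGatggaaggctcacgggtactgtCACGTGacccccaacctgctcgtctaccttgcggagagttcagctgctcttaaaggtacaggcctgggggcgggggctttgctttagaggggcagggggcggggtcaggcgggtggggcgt
Mcoln1, chr8:3500319-3500518, + strand: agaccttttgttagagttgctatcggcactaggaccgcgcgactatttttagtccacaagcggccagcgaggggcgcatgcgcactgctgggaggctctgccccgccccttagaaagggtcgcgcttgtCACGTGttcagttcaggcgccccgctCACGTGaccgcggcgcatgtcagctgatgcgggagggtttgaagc
Ctsd, chr7:142387828-142388027, - strand: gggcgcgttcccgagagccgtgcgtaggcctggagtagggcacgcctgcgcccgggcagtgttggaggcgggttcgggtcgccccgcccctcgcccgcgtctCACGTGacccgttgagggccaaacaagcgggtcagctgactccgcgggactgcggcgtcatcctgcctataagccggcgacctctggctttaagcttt

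A list of ribosome biogenesis genes was likewise written after values were seen. Of 67 measured, 18 rose (26.9%, against 7.49% of all genes) and 4 fell (5.97%, against 10.4%), with a median of 0.255. Imp4, a part of the small subunit processome, rose from 8.24, 8.47 and 8.13 to 9.98, 9.62 and 9.70 (2.8-fold, adjusted p = 0.00102), Wdr46 by 1.24 and Rbm19 by 1.16, while Rpf1, which matures the large subunit, fell by 1.73. The proteins of the finished cytosolic ribosome had a median change of -0.0276. Rises numbered 15 to 21 when 1 T cell array was left out and 25 after median centring, and the falls numbered 1 without clone 2 of passage 4 and 2 without clone 3 of passage 4 or clone 2 or 3 of passage 16. Over all genes, rises numbered 575 to 751 without 1 T cell array and 1323 after median centring, against 884 in the main fit.

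Chromosome medians were taken over genes with a mean of at least 7 at either passage. They lay between -0.181 (chromosome 3, 308 genes) and 0.0559 (chromosome X, 190 genes). On chromosome X, clones 1 and 2 of passage 16 were at 0.1 and 0.113 against the early mean, and clone 3 at -0.158.

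T cell clones of passage 10 sit on another platform with its own normalization. Within that table, 7 of 136 named genes had all 3 T cell clones above or all 3 below the 9 other arrays (5.15%, against 2.11% of the 12394 genes of that table). Ddit3 was lowest in T cell clones, at 8.292 ± 0.207 (SD, n = 3), and H2-D1 highest, at 9.149 ± 0.049. For Dll1, Fosb, Egr2, Dppa2, H2-K1 and Usp17la the T cell clones overlapped the others.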
